A study of Mus musculus with 4 samples.

Results

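Semaphorins are guidance proteins, secreted or held on the cell surface, and plexins and neuropilins are the receptors that read them. The 31 genes described here are all those measured whose symbol is that of a semaphorin of class 3 to 7 (20 genes), of a plexin (9 genes), or is Nrp1 or Nrp2. They were picked by symbol from 18193 genes on the array, with earlier results of these data known, and they were represented by 78 of the 45037 probe sets tested. A probe set is the group of short probes that reports on 1 transcript. The study set OP9M2, a mesenchymal stem cell line cloned out of OP9 stroma and labelled supportive, beside BFC012, a fibroblast line of mouse fetal liver labelled non-supportive, where support refers to human blood progenitors kept on the stroma in co-culture. There were 2 arrays per line, named biological replicates in the labels. Cells of both lines received 2000 rad of irradiation and were plated at 25000 per square centimetre, 48 hours ahead of harvest, so no group here was unirradiated. OP9M2 grew with 20% serum and BFC012 with 10%, and each line stands for a single culture history, so line, origin and serum cannot be told apart. The question was which members of this ligand and receptor family differed between the supportive and the non-supportive line.

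In the family, class 3 semaphorins are the secreted members. Most of them bind a neuropilin, which has a short cytoplasmic tail, and signal through a plexin that the neuropilin holds. Classes 4, 5 and 6 cross the membrane, and class 7 is anchored in it by a lipid, and these bind plexins directly. Plexins carry a domain that switches off small Ras-like GTPases and thereby loosens the grip of integrins and the cytoskeleton. The family is known best from axon guidance, and it also steers endothelial cells, immune cells, bone cells and neural crest.

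Of the secreted class 3 semaphorins, Sema3a, Sema3c and Sema3d were lower in OP9M2. Plxnb2, the receptor of class 4 semaphorins, was lower too. The receptor Plxna2 and the transmembrane ligand Sema5a were higher in OP9M2. Levels are natural logarithms of the deposited intensities, read as RMA log2 values and called log2 values here, and each gene is given by its brightest probe set, the one with the highest mean over the 4 arrays. Calls needed a limma adjusted p below 0.05 together with a 2-fold change, that is 1 log2 unit or more in either direction. By this rule 2 of 31 members were higher (6.45%, against 2.36% of all genes) and 4 were lower (12.9%, against 3.56% of all genes), and 25 were not called. Over all probe sets of the members, 4 of 78 were higher (5.13%, against 1.8% of all probe sets) and 10 were lower (12.8%, against 2.66%). The median difference over the 31 members was -0.14 log2 units, and 0.032 over all genes. These shares describe the family, and no test of the family as a set was made.

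The background level was 6.09 log2 units, the value under which 95% of the readings of 81 probe sets for olfactory, vomeronasal and trace amine receptors lay. No member was filtered out of the test. Of the 31, 29 were above the background level on at least 1 array and 19 on all 4, while Sema4a and Plxnc1 were above it on none. With limma all 6 calls were lost without BFC012 replicate 1 and without BFC012 replicate 2, when the spread came from the OP9M2 pair alone and 0 of the 45037 probe sets were called. With all 4 arrays 11 of the 31 members had an unadjusted limma p under 0.05, as did 4238 of all 18193 genes. Without OP9M2 replicate 1, 3 members were higher and 5 lower, when 3.78% and 5.41% of all genes were. Without OP9M2 replicate 2, 5 were higher and 4 lower, when 6.47% and 6.26% of all genes were. The 6 called members were among the called members in both cases.

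The 2 arrays of OP9M2 were less alike (Pearson r = 0.98 across probe sets) than those of BFC012 (r = 0.994), and among the members 6 genes lay at least 1 log2 unit apart between the OP9M2 arrays and 0 between the BFC012 arrays. Those 6 were Sema3g, Sema4b, Sema4c, Sema6d, Sema7a and Plxnd1. The spiked poly-A controls had a mean of 4.0 on OP9M2 replicate 2 and 6.04 to 7.45 on the other arrays, and the ribosomal RNA control probe sets had a mean of 14.2 there and 12.7 to 13.2 elsewhere. The part of this in any result was not tested. Among genes whose call changed without that array, values are given for Plxnd1 and Sema7a. For Sema4b and the pathway genes only the change in calls is given. Of 12 markers of fibroblasts and mesenchymal stroma, 11 were above background on both OP9M2 arrays and 10 on both BFC012 arrays, with list means of 11.73 to 12.24 and 10.55 to 10.71, while Thy1 was above it on none. Of these, Col1a2 (8.07 ± 0.14) and S100a4 (2.23 ± 0.13) were called higher in OP9M2, and Pdgfra (3.37 ± 0.56) and Pdgfrb (2.18 ± 0.51) were not called. The rest were not called either. Col1a1 (-0.63), Col5a1 (-0.21), Twist1 (-0.11) and Prrx1 (-0.068) had negative differences, and Col3a1, Thy1, Vim and Fn1 lay between 0.23 and 0.42. The part of these markers in the results was not tested. Markers of endothelial cells (list means 4.63 to 4.76), blood cells (5.44 to 5.62), hepatocytes (5.82 to 5.91) and neural cells (5.76 to 5.91) gave 0 calls with limma and 0 at an unadjusted p under 0.05. Pecam1, Cdh5, Ptprc, Itgam, Alb, Afp and Snap25 were below background on every array, while 0 of 8 endothelial, 2 of 8 blood (Csf1r and Cd3e), 2 of 7 hepatocyte (Ttr and Hnf4a) and 3 of 7 neural markers (Sox10, Gfap and Elavl3) were above it on all 4 arrays. Epithelial markers had list means of 5.82 to 6.12 in OP9M2 and 6.51 to 6.82 in BFC012, and Cdh1 (-4.56 ± 0.24) was called lower in OP9M2. Of the 8, 3 were above background on all 4 arrays and not called: Epcam (0.94), Krt19 (-1.40) and Cldn3 (0.065). The Epcam probe set is of a type prone to match other transcripts. Krt8 (-0.59), Krt18 (-0.039), Cldn4 (-0.012) and Esrp1 (0.033) were not called either. Whether a lower value means fewer cells with a transcript or less of it per cell cannot be told from such RNA.

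**Figure D1:**
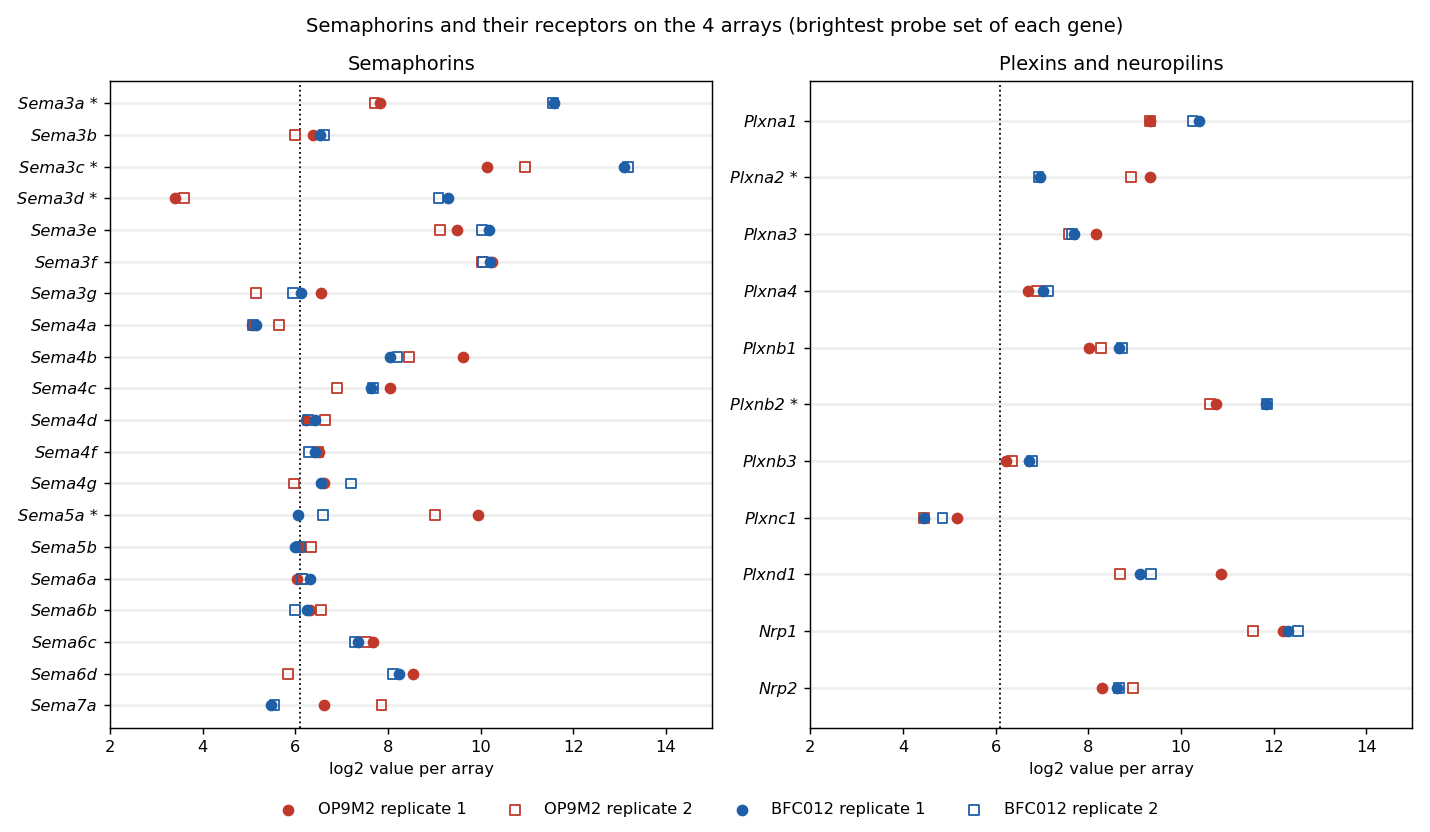
Log2 value (horizontal axes) of the 20 semaphorins (left) and of the 9 plexins and 2 neuropilins (right) on each of the 4 arrays, by brightest probe set; red is OP9M2, blue is BFC012, filled circles are replicate 1, open squares are replicate 2, a dotted line marks background (6.09), and an asterisk marks the 6 called genes. Sema3a, Sema3c and Sema3d lie far to the right on both BFC012 arrays, and Plxna2 and Sema5a on both OP9M2 arrays.

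Sema3d, a secreted semaphorin known from heart and neural crest development, showed the largest difference of the family. Its log2 values, with replicate 1 named first here and throughout, were 3.40 and 3.60 in OP9M2 and 9.29 and 9.09 in BFC012. Both OP9M2 values were below background and both BFC012 values were well above it. The measured difference was -5.69 ± 0.16 (SE, n = 2 arrays per line, limma adjusted p = 0.00112), and against the background level BFC012 was at least 8.56-fold higher. The other probe set of Sema3d gave 4.26 and 4.45 in OP9M2 and 6.22 and 6.24 in BFC012 and was also called lower (-1.87 ± 0.14, adjusted p = 0.00766), though BFC012 lay just over background there and the bound was at least 1.10-fold.

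Sema3a, the archetypal axon repellent, which acts through Nrp1 and class A plexins, stood at 7.84 and 7.71 in OP9M2, against 11.58 and 11.57 in BFC012. It was above background in both lines, and the lines did not overlap. The difference was -3.80 ± 0.14, a fold of 14.0 (adjusted p = 0.00157). Its other 2 probe sets were called lower as well, at -4.58 ± 0.32 and -4.02 ± 0.14, so that all 3 probe sets of the gene were called lower. The last was below background on both OP9M2 arrays (4.27 and 4.22), which makes it at least 4.51-fold, and the one before it on 1 of them.

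Sema3c, which binds both neuropilins and Plxnd1 and is needed to shape the outflow tract of the heart, was at 10.13 and 10.96 in OP9M2, against 13.10 and 13.19 in BFC012. Both lines were therefore far above background, and OP9M2 was lower by -2.60 ± 0.31, a fold of 6.07 (adjusted p = 0.0226). The other probe set of Sema3c read 5.92 and 7.38 in OP9M2 and 10.01 and 10.20 in BFC012 (-3.46 ± 0.50, adjusted p = 0.0389).

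Sema3e, which binds Plxnd1 without a neuropilin, was not called by its brightest probe set. It read 9.50 and 9.12 in OP9M2 and 10.18 and 10.03 in BFC012 (-0.80 ± 0.19, adjusted p = 0.108). All 4 of its probe sets had a negative difference, from -0.99 to -0.28, and 1 of them passed the adjusted p but not the fold limit (-0.99 ± 0.14, adjusted p = 0.0347). The 95% interval of the brightest probe set, -1.30 to -0.30, reached a change of more than 2-fold.

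These genes share a place in the genome that the choice by name did not use. In the mouse reference (GRCm38.p6) Sema3d, Sema3a, Sema3e and Sema3c follow each other on chromosome 5, with other genes between them. Of 22 coding genes in that stretch, 9 were measured, the 4 semaphorins among them. None of the 5 others was called, and 4 of them had differences below 0. Hgf, the ligand of the receptor Met and also a binder of neuropilins, was at 9.94 and 6.62 in OP9M2, against 5.54 and 4.78 in BFC012 (3.12 ± 1.14, adjusted p = 0.248), and its OP9M2 arrays were far apart. Cacna2d1, a calcium channel subunit, differed by -0.024 ± 0.49, with OP9M2 replicate 1 above and replicate 2 below both BFC012 arrays. The presynaptic gene Pclo (-0.091) was below background, and Speer3 (-0.71) and Speer4f1 (-0.16) belong to a repeated gene family whose probes may match relatives. With limma 2 of the 5 neighbours had an unadjusted p under 0.05, Hgf and Speer3, as did 4238 of all 18193 genes.

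**Figure D2:**
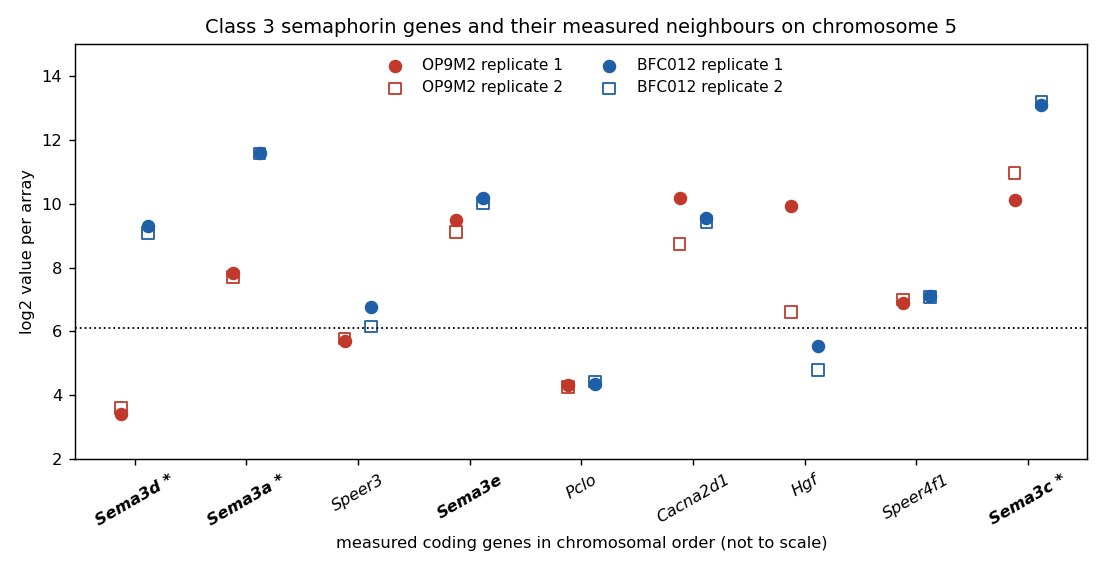
Log2 value (vertical axis) on each of the 4 arrays for the 9 measured coding genes from Sema3d to Sema3c on chromosome 5, in their order along the chromosome and not to scale; colours and symbols as in the plot of all members, semaphorins in bold, asterisks on called genes, dotted line at the background level of 6.09. Sema3d and Sema3a stand at one end and Sema3c at the other, and the genes between them were not called.

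The start regions of these genes are shown because 3 class 3 genes were called in the same direction, with those of the 2 genes called in the opposite direction for contrast. The sequences are from RefSeq on GRCm38.p6, plus strand, windows of 300 bases that hold the annotated start, at chr5:12382916-12383215 (Sema3d), chr5:13396534-13396833 (Sema3a), chr5:14025026-14025325 (Sema3e), chr5:17574566-17574865 (Sema3c), chr1:194619579-194619878 (Plxna2) and chr15:32244563-32244862 (Sema5a). Capitals mark the GC box GGGCGG on either strand and, in Sema3e, the E-box CACGTG.

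Sema3d: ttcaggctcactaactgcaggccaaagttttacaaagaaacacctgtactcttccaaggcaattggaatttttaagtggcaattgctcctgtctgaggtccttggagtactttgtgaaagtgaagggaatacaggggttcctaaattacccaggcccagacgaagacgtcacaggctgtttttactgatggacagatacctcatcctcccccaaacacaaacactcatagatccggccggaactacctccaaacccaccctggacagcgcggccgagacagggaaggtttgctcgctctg
Sema3a: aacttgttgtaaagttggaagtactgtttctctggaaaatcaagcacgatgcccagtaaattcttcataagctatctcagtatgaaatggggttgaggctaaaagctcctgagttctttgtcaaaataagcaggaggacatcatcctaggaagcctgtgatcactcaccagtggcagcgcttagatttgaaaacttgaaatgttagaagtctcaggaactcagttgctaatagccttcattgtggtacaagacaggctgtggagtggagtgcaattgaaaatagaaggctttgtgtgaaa
Sema3e: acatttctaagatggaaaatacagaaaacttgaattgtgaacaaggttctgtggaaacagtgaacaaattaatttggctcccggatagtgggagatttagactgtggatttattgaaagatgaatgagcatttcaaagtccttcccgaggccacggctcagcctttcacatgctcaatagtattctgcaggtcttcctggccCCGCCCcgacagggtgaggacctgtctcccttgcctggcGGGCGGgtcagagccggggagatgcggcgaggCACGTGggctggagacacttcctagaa
Sema3c: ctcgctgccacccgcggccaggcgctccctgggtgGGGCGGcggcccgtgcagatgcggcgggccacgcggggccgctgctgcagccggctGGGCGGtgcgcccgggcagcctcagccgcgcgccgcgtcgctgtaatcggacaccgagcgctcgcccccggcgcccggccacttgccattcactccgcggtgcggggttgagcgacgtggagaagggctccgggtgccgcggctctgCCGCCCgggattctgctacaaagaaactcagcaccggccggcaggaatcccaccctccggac
Plxna2: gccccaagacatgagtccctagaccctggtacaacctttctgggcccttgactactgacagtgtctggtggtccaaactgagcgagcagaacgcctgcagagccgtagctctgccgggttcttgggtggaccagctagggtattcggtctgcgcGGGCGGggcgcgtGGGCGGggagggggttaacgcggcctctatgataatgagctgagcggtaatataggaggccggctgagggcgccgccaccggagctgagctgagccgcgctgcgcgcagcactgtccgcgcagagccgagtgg
Sema5a: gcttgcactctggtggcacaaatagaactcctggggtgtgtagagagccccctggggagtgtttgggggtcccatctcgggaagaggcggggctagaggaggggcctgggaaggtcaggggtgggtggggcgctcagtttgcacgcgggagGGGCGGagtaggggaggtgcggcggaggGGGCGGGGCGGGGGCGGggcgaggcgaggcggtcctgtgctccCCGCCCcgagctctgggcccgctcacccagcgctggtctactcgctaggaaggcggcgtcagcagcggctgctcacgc

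The 3 called class 3 genes did not share a type of start region. Sema3c had 42 CpG pairs in its 300 bases and a GC content of 75.7%, while Sema3a had 2 CpG pairs and 41.3%, and Sema3d 8 and 49.7%. The median over the 32851 windows of this length in the table was 7 CpG pairs and 52.7%, and over the 37 windows of the 26 members that had one it was 15 and 63.7%. GC boxes were matched 3 times in Sema3c, 2 times in Sema3e, 2 times in Plxna2 and 5 times in Sema5a, some of them overlapping in Sema5a, and 0 times in Sema3a and Sema3d. Of all windows 35.7% held 1, and of the members' windows 27 of 37 did. The TATA box TATAAA was in 13.6% of all windows and in 0 of 37, the AP-1 motif TGANTCA in 7.8% and in 3 of 37, and the E-box in 7.2% and in 3 of 37, each searched on both strands. These letters are a description of the windows.

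The other class 3 members were Sema3f, Sema3b and Sema3g. Sema3f, a ligand of Nrp2, read 10.25 and 10.03 in OP9M2 and 10.20 and 10.06 in BFC012 by its brightest probe set (0.012 ± 0.15, adjusted p = 0.985). That probe set is of the type that the manufacturer marks as prone to match other transcripts. The other probe sets of Sema3f lay at -0.88 ± 0.17 (adjusted p = 0.0766) and -0.49 ± 0.13 and were not called, so the probe sets of this gene differed in sign. Sema3b (-0.39) and Sema3g (-0.20) were near background and not called.

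**Figure D3:**
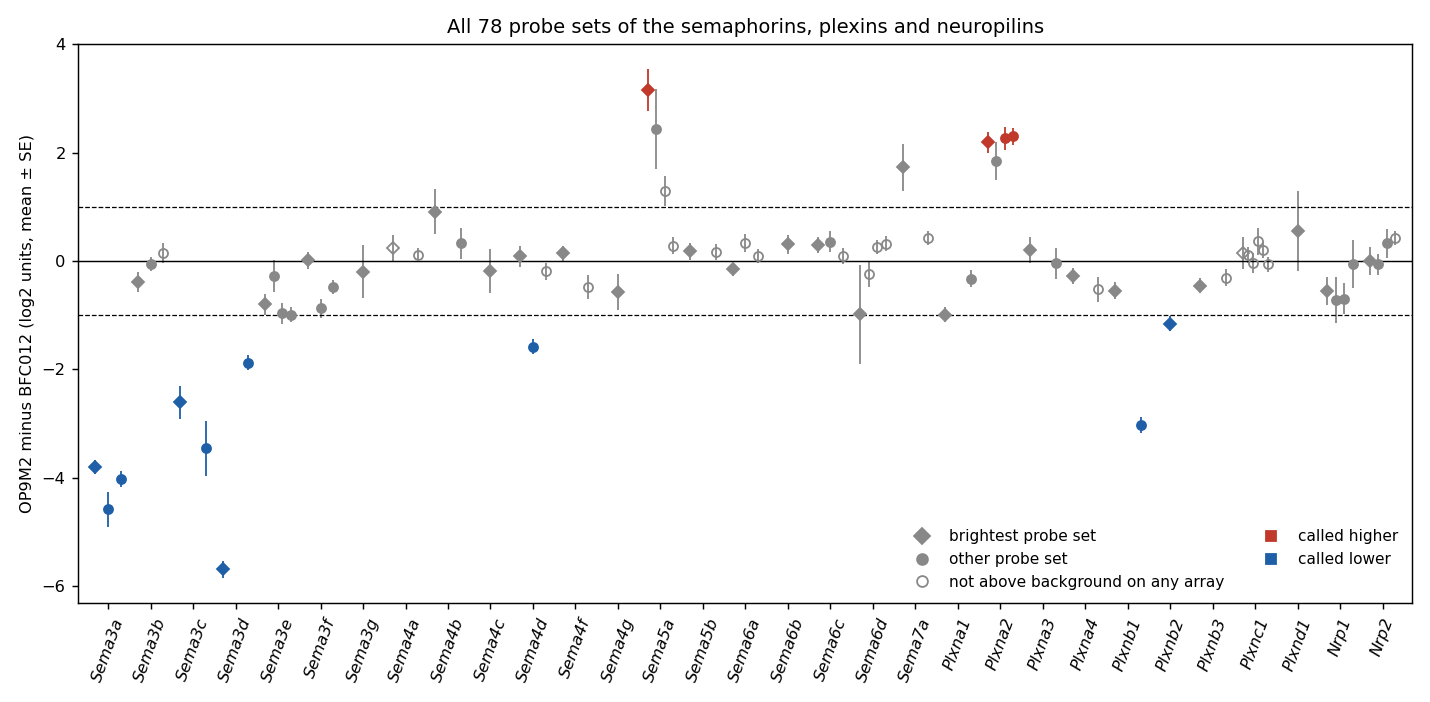
Difference OP9M2 minus BFC012 (vertical axis, log2 units, ± SE, n = 2 arrays per line) for each of the 78 probe sets, grouped by gene; diamonds are the brightest probe set of a gene, circles the others, open symbols were not above background on any array, red was called higher, blue called lower, and dashed lines mark 1 log2 unit. All probe sets of Sema3a, Sema3c and Sema3d were called lower, and 3 of those of Plxna2 higher, while those of Plxnb1, Sema4d and Sema5a are spread out.

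Among ligands held on the membrane, Sema5a was called higher in OP9M2. Sema5a carries thrombospondin repeats beside its semaphorin domain and is a ligand of Plxnb3. It was at 9.94 and 9.02 in OP9M2, against 6.05 and 6.60 in BFC012, so that 1 of the BFC012 arrays was above background. The difference was 3.16 ± 0.38, a fold of 8.91 (adjusted p = 0.024). The next probe set of Sema5a had a difference of 2.43 ± 0.74 (adjusted p = 0.182), with BFC012 values of 5.42 and 6.82, and the remaining pair, below background on every array, gave 1.29 and 0.28. With the mean of its probe sets in place of the brightest, Sema5a was not called (1.79, adjusted p = 0.0522).

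Sema7a, the lipid-anchored member, binds Plxnc1 and integrins. Of its 2 probe sets 1 was below background on every array (0.42 ± 0.13, adjusted p = 0.183). The brightest was above background in OP9M2 only, at 6.61 and 7.86, against 5.47 and 5.55 in BFC012. The OP9M2 arrays differed from each other by more than the difference limit and the gene was not called (1.73 ± 0.44, adjusted p = 0.127). It was called higher without OP9M2 replicate 1 (2.35, adjusted p = 0.00517) and without OP9M2 replicate 2 (1.10, adjusted p = 0.0236), in each case with the spread of the BFC012 pair standing in for the line with 1 array.

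Sema4d, also known as CD100, a ligand of Plxnb1 that restrains bone-forming cells, gave a different answer by probe set. The brightest read 6.23 and 6.64 in OP9M2 and 6.42 and 6.27 in BFC012 (0.091 ± 0.20, adjusted p = 0.873). Another read 5.22 and 5.26 in OP9M2, below background, and 6.77 and 6.88 in BFC012, and was called lower (-1.58 ± 0.13, at least 1.66-fold, adjusted p = 0.0099). The third was below background on every array (-0.19). The gene is therefore reported as uncertain.

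The remaining membrane-bound semaphorins were not called. In class 4 their differences ran from -0.58 in Sema4g to 0.91 in Sema4b, and in class 6 from -0.98 in Sema6d to 0.31 in Sema6b, while Sema5b was at 0.18. Sema4b, a transmembrane member, read 9.62 and 8.45 in OP9M2 and 8.04 and 8.21 in BFC012 (0.91 ± 0.41, adjusted p = 0.342). Sema6d, a ligand of Plxna1 in heart development, read 8.55 and 5.83 in OP9M2 and 8.24 and 8.10 in BFC012 (-0.98 ± 0.92, adjusted p = 0.66). Both rest on an OP9M2 pair that was far apart: Sema4b was called higher without OP9M2 replicate 2, and Sema6d was called lower without OP9M2 replicate 1. These genes were singled out after their values were seen.

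Of the 9 plexins, the receptors that carry the signal, 1 was higher (11.1%, against 2.36% of all genes). Another 1 was lower (11.1%, against 3.56%), and 7 were not called. Plxna2, which serves class 3 semaphorins together with a neuropilin and binds Sema6a directly, was at 9.34 and 8.92 in OP9M2, against 6.97 and 6.93 in BFC012. All 4 values were above background, and both OP9M2 values exceeded both BFC012 values. The difference was 2.19 ± 0.19, a fold of 4.56 (adjusted p = 0.0106). Of its other 3 probe sets, those at 2.26 ± 0.21 and 2.30 ± 0.16 were called higher, the latter with BFC012 below background (at least 2.85-fold), and the last was not (1.84 ± 0.35, adjusted p = 0.07).

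Plxna1, a receptor of Sema3a and of class 6 ligands, had a difference of the opposite sign, just inside the fold limit. It read 9.33 and 9.33 in OP9M2 and 10.39 and 10.25 in BFC012 (-0.99 ± 0.14, a fold of 1.98, adjusted p = 0.034). It passed the adjusted p and missed the limit of 1 log2 unit by little. It was called lower after each array was centred on its median (-1.001, adjusted p = 0.0301). With the mean of its probe sets it was at -0.66 and not called (adjusted p = 0.0569). The other probe set of Plxna1, below background on both OP9M2 arrays, was at -0.33 (adjusted p = 0.378). Plxna3 (0.20) and Plxna4 (-0.28) were not called.

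The class B plexins, which bind class 4 semaphorins and recruit activators of RhoA, had negative differences in all 3 genes, of which 1 was called. Plxnb2, the receptor of Sema4c, was at 10.76 and 10.62 in OP9M2, against 11.84 and 11.85 in BFC012 (-1.15 ± 0.14, a fold of 2.23, adjusted p = 0.023). The lines did not overlap and both were far above background. Plxnb1, the receptor of Sema4d, was read by 2 probe sets that differed in their call. The brightest was at 8.01 and 8.28 in OP9M2, against 8.67 and 8.73 in BFC012 (-0.55 ± 0.16, adjusted p = 0.161). The other was at 4.94 and 5.07 in OP9M2, against 7.96 and 8.10 in BFC012 and was called lower (-3.02 ± 0.14, adjusted p = 0.00256). The called probe set was below background on both OP9M2 arrays, so its difference is a bound of at least 3.83-fold. Plxnb3, the receptor of Sema5a, differed by -0.46 ± 0.14 (adjusted p = 0.176).

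Plxnd1, the receptor of Sema3e, had 1 probe set and a sign that rested on a single array. It read 10.87 and 8.69 in OP9M2 and 9.11 and 9.35 in BFC012 (0.55 ± 0.74, adjusted p = 0.777). Without OP9M2 replicate 2 it was called higher (1.65, adjusted p = 0.0127), and without OP9M2 replicate 1 the difference was -0.54 (adjusted p = 0.183). Plxnc1, the receptor of Sema7a, was not above background on any array with any of its 6 probe sets.

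The 2 neuropilins were not called. Nrp1, the co-receptor of Sema3a and Sema3c and also of vascular endothelial growth factor, was at 12.20 and 11.55 in OP9M2, against 12.32 and 12.53 in BFC012 (-0.55 ± 0.26, adjusted p = 0.362, 95% interval -1.25 to 0.14). The interval runs from more than 2-fold lower to slightly higher, so a moderate difference is not excluded. The value was -0.88 without OP9M2 replicate 1 and -0.23 without OP9M2 replicate 2. Its other probe sets gave -0.72 ± 0.42, -0.70 ± 0.28 and -0.052 ± 0.45. None was called, and all 4 probe sets of Nrp1 had a negative difference. Nrp2, the co-receptor of Sema3f, was at 8.30 and 8.97 in OP9M2, against 8.61 and 8.66 in BFC012 (-0.0019 ± 0.26, adjusted p = 1). The interval of this probe set was -0.69 to 0.69, narrower than the fold limit on both sides. Other probe sets of Nrp2 gave -0.061, 0.32 and, below background on every array, 0.42, and none was called. The interval of the probe set at 0.32 ran from -0.38 to 1.03, so a 2-fold higher value is not excluded by it. By their brightest probe sets both genes were above background on all 4 arrays.

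Ligands act on receptors of the same or of neighbouring cells, so known ligand and receptor pairs were looked up by whether both partners were above background on both arrays of a line. Of 22 such pairs on the list used, 11 met this in both lines, 4 in OP9M2 only, 3 in BFC012 only and 4 in neither. The list did not cover every member and held no pair of Sema3d. That ligand was above background on both BFC012 arrays and below it on both OP9M2 arrays, so the counts leave out its pairs. The pairs present in both lines included Sema3a with Nrp1, Sema3c with Nrp1, Nrp2 and Plxnd1, Sema3e with Plxnd1, Sema3f with Nrp2 and Sema4c with Plxnb2. For Sema3a and Sema3c, then, the ligand differed between the lines while the neuropilins they bind were not called. Sema5a with Plxnb3 and with Plxna1 met the condition in OP9M2 only, through 1 BFC012 array on which Sema5a (6.05) lay just under background. The other listed pairs found in 1 line rest on values close to the background level or on 1 array. Sema5b, Sema6a and Sema6b lay between 5.98 and 6.54 on all arrays, and Sema6d fell below background on OP9M2 replicate 2 alone. The human progenitors grown on this stroma were not on these arrays, so pairs between stroma and blood cells were not analysed here.

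Beyond the family itself, 71 of 75 listed genes of its pathway were measured: co-receptors and other binding partners, growth factors that share the neuropilins, cytoplasmic effectors and processing proteases. Of these, 4 were higher in OP9M2 (5.63%, against the 2.36% of all genes), 9 were lower (12.7%, against 3.56%) and 58 were not called. The median difference was 0.0055. With all 4 arrays 34 of the 71 had an unadjusted limma p under 0.05, as did 4238 of all 18193 genes. As for the members, the calls were lost without either of the BFC012 arrays. Without OP9M2 replicate 2 more pathway genes were called higher, when calls over all genes also rose.

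Among the 18 measured binding partners, 2 were higher (11.1%, against 2.36% of all genes) and 3 lower (16.7%, against 3.56%). Cspg4, a surface proteoglycan of pericytes and glial progenitors, was at 10.02 and 9.84 in OP9M2, against 6.54 and 6.54 in BFC012 (3.39 ± 0.14, a fold of 10.5, adjusted p = 0.00197). Sdc3, a heparan sulfate carrier, was higher by 2.50 ± 0.23 (adjusted p = 0.0123), and by 1.13 (adjusted p = 0.0375) with the mean of its probe sets. Met, the receptor of Hgf that plexins of class B can engage, was at 9.55 and 9.72 in OP9M2, against 11.73 and 11.88 in BFC012 (-2.17 ± 0.15, a fold of 4.51, adjusted p = 0.00615). Ptk7, a receptor of planar cell polarity without kinase activity (-2.41 ± 0.13, adjusted p = 0.00376), and Flt4, the receptor of Vegfc (-1.94 ± 0.22, adjusted p = 0.02), were lower as well. Flt4 was below background in OP9M2, which makes the difference at least 2.53-fold, and was not called with the mean of its probe sets (-0.93). Erbb2, the other receptor kinase tied to class B plexins, was not called (-0.24).

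Of the 6 growth factors that bind neuropilins, 1 was higher (16.7%, against 2.36% of all genes). This was Pgf, which encodes placental growth factor, at 9.42 and 8.53 in OP9M2, against 6.50 and 6.73 in BFC012 (2.36 ± 0.33, adjusted p = 0.0354). None of the 6 had a negative difference. Vegfc (2.10 ± 0.40, adjusted p = 0.0705) and Hgf were below background in BFC012 and were not called, and Vegfa (0.12), Vegfb (0.92) and Vegfd (0.017) were not called either.

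Of the 41 measured cytoplasmic effectors, 1 was higher (2.44%, against 2.36% of all genes) and 5 lower (12.2%, against 3.56%). The share called higher was thus close to that over all genes. Tiam1, an exchange factor that loads Rac with GTP, was at 5.35 and 6.59 in OP9M2, against 10.21 and 9.98 in BFC012 (-4.13 ± 0.44, adjusted p = 0.0181). Kalrn, another exchange factor, was at 5.56 and 4.97 in OP9M2, against 8.13 and 8.27 in BFC012 (-2.94 ± 0.24, at least 4.32-fold, adjusted p = 0.00893). With the mean of the probe sets Tiam1 was at -1.53 (adjusted p = 0.0335) and Kalrn at -0.71 and not called (adjusted p = 0.0538). Of the other exchange factors on the list for Rac, Trio (0.013) and Farp2 (0.50) were not called, nor was the GTPase Rnd1 (-3.02 ± 0.87, adjusted p = 0.163). Rnd3, a small GTPase that binds plexins and opposes RhoA (-1.71 ± 0.22, adjusted p = 0.0274), Mical2, an oxidase of actin (-1.51 ± 0.18, adjusted p = 0.024), and Farp1, an exchange factor related to the class A effector Farp2 (-1.09 ± 0.15, adjusted p = 0.035), were lower. Limk1, the kinase that inactivates cofilin, was higher (1.15 ± 0.13, adjusted p = 0.0224), but not with the mean of its probe sets (0.55). The collapsin response mediators Crmp1, Dpysl2, Dpysl3, Dpysl4 and Dpysl5, named for the response of axons to Sema3a, were not called. Dpysl3 had the widest difference of these, at 8.30 and 9.70 in OP9M2 against 10.45 and 10.67 in BFC012 (-1.56 ± 0.49, adjusted p = 0.19), and Crmp1 and Dpysl4 were below background.

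Class 3 semaphorins are cut by furin-like proteases. Of 6 processing proteases 1 was lower (16.7%, against 3.56% of all genes), the furin relative Pcsk6. It was at 6.57 and 7.10 in OP9M2, against 8.97 and 8.74 in BFC012 (-2.02 ± 0.23, a fold of 4.06, adjusted p = 0.0208). Furin itself was not called (0.54 ± 0.28, adjusted p = 0.394).

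**Figure D4:**
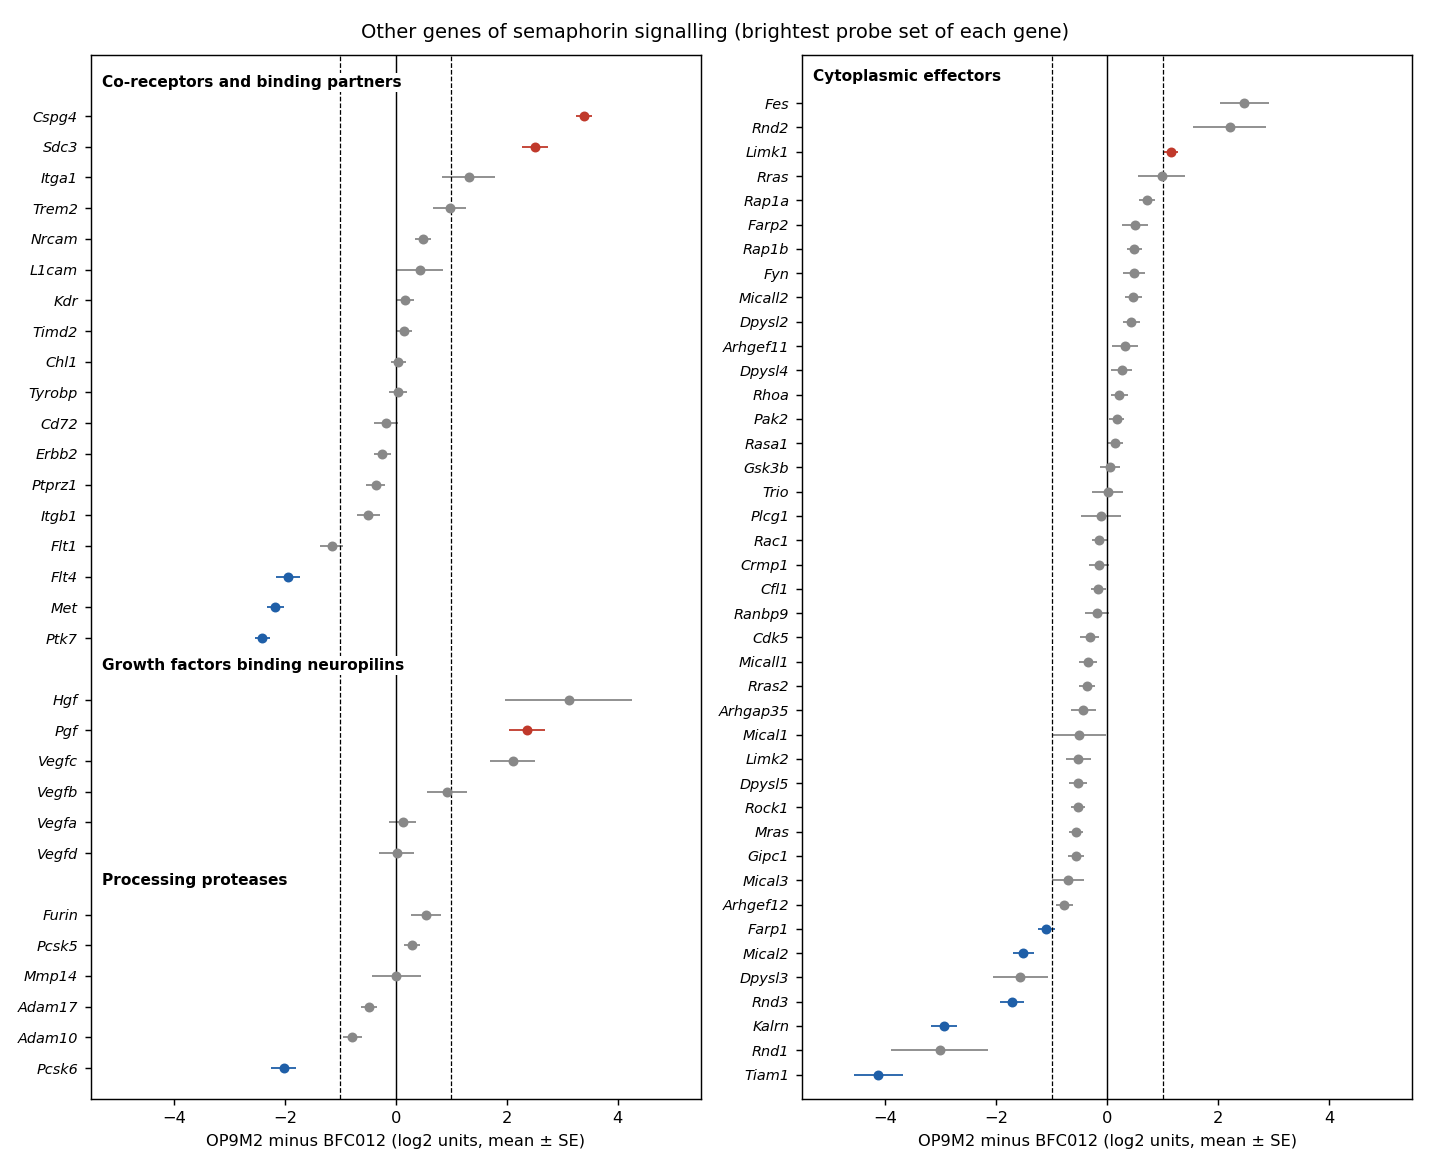
Difference OP9M2 minus BFC012 (horizontal axes, log2 units, ± SE, n = 2 arrays per line) for the 71 measured pathway genes, in their groups and ordered by difference, by brightest probe set; red was called higher, blue called lower, grey not called, and dashed lines mark 1 log2 unit. Among called genes Cspg4 and Sdc3 lie furthest right and Tiam1 and Kalrn furthest left, while the uncalled Hgf (3.12) lies right of Sdc3 and the uncalled Rnd1 (-3.02) left of Kalrn.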

How the data were processed

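Total RNA of the lines OP9M2 and BFC012 was amplified and hybridized to Affymetrix mouse expression arrays, 2 per line. The authors deposited an intensity for every probe set on every array, and the submitters' processing notes name RMA and affy for it. The study named Bioconductor 2.7, and further versions and settings were not found in the labels or methods. Between 6.31% and 6.57% of the deposited values of an array exceeded what a scanner can record, and their natural logarithms lay between 2.06 and 14.9, so the natural logarithm was read as the RMA log2 value. The authors' log base was not stated; with log2 of the deposited value every difference grows by the same factor and no p changes.

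Of 45101 probe sets, 64 controls were left out. The array annotation gave 1 gene for 34945 probe sets, several for 932 and none for 9160; members and lists used those with 1 gene. The test was limma's moderated one (limma 3.58.1, R 4.3.3; no covariate, 2 residual and 2.50 prior degrees of freedom) with Benjamini-Hochberg adjustment over 45037 probe sets, after the false discovery rate and fold in the methods; the script was tested on simulated data. All tests were two-sided, and errors are SE. The number of arrays limits the precision. Nothing in the labels beyond the term biological replicate says that arrays came from separate cultures, and p-values measure only the spread between them. A fold is given as a bound where neither array of the dimmer line exceeded background, whose values were then raised to that level.

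Values per array are given for members called by any probe set and members above background in a line with a difference of at least 1. They are also given for the neuropilins, the 3 brightest ligands and the 3 brightest plexins. Of pathway genes, the called ones up to 12 are named. Of these 12, values per array are given for Tiam1, Cspg4, Kalrn, Pgf, Met and Pcsk6. Farp1 was named beyond this, as were uncalled pathway genes, among them Hgf, Dpysl3, Rnd1, Vegfc, Erbb2, Trio and Furin. Values per array were also given beyond this for Sema4b, Sema6d, Hgf, Dpysl3, Plxdc2 and Neto2. The members and lists were chosen with earlier results of these data known. In all, 15 alternative settings were run. Promoter windows were from the RefSeq table, which held 26 of the 31 members.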

Additional observations from a re-analysis of the deposited data

How the results depend on the processing

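The directions of all 6 called members were kept under all 15 alternatives. Sema3a was called under 13 of them, Sema3d under 12, Sema3c and Plxna2 under 11, and Plxnb2 and Sema5a under 10. Quantile normalization, the filter on dim probe sets and the intensity trend with a robust prior called the same 6 members. With log2 of the deposited value, with median centring and with no limit on the difference Plxna1 was added as lower. With values floored at the background level 20126 probe sets were constant over the arrays and far fewer were called. Of all genes 0.126% were then higher and 0.489% lower. The floor left 0 member genes higher and 1 lower (Sema3a), and 0 member probe sets higher and 1 lower. It left 1 pathway gene higher and 1 lower. With the mean of the probe sets of a gene, 1 member was higher, Sema5a being lost, and Plxnb1 was added as lower. Of all genes 2.5% were higher and 3.64% lower in that setting. With the most variable probe set Plxnb1 and Sema4d were added as lower.

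The replicate numbers of the labels were not taken to pair the arrays, since deviations of same-numbered arrays had a correlation of -0.103. With the replicate block 0 member genes were higher and 2 lower (Sema3a and Sema3d), when 0.77% and 1.54% of all genes were. In that setting 1 member probe set was higher and 5 lower, and 1 pathway gene was higher and 2 lower. With the crossed replicate block, added after seeing the data, 2 member genes were higher and 3 lower, when 1.76% and 2.5% of all genes were. There 6 member probe sets were higher and 8 lower, and 4 pathway genes were higher and 8 lower.

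Leaving out 1 array at a time gave 0 to 5 member genes higher and 0 to 5 lower, 0 to 9 member probe sets higher and 0 to 15 lower, and 0 to 12 pathway genes higher and 0 to 12 lower. The zeros are those without a BFC012 array.

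Differences that turned sign were small or uncalled ones. Nrp2 was at 0.17 with the mean of its probe sets, 0.32 with the most variable probe set, 0.058 after quantile normalization, and between -0.34 and 0.34 with 1 array left out. Sema3f was at -0.45 with the mean, -0.88 with the most variable probe set, -0.0028 after median centring, and between -0.096 and 0.12 with 1 array left out. Sema4d was at -0.56 with the mean, -1.58 with the most variable probe set (called lower), and between -0.12 and 0.30 with 1 array left out. Plxnd1 lay between -0.54 and 1.65 with 1 array left out. Of the 12 named pathway genes, whose alternatives were added after seeing the data, none turned sign. Among the settings that keep all arrays Cspg4 and Ptk7 were called in each, and the floor ended the calls of all 10 others. The replicate block ended those of Tiam1, Kalrn, Rnd3, Mical2, Limk1, Sdc3, Pgf, Pcsk6 and Flt4, the mean of the probe sets those of Kalrn (-0.71), Flt4 (-0.93) and Limk1 (0.55), the most variable probe set that of Mical2 (-2.48), and the crossed block that of Limk1. The causes were not tested, beyond what the floor does by construction.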

Other observations

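Some receptors resemble plexins or neuropilins in their domains without belonging to either family. Of 7 such genes measured, limma called 2, both lower in OP9M2 (against 3.56% of all genes), and left 5 uncalled. Plxdc2, whose extracellular part holds a plexin-like domain, was at 5.80 and 5.396 in OP9M2, against 7.27 and 7.07 in BFC012 (-1.57 ± 0.20, at least 2.11-fold, limma adjusted p = 0.0273). Neto2, an auxiliary subunit of glutamate receptors with the CUB domains that neuropilins also have, was at 3.70 and 4.47 in OP9M2, against 6.72 and 6.46 in BFC012 (-2.51 ± 0.30, at least 1.41-fold, adjusted p = 0.0235). Mst1r, a receptor kinase with a semaphorin domain like that of Met, differed by -0.99 ± 0.14 (adjusted p = 0.0326) and missed the fold limit, with both OP9M2 arrays below background. Dcbld2, built much like a neuropilin, was above background on all arrays and not called (-0.21 ± 0.27), and Dcbld1 (-0.40), Plxdc1 (0.25) and Neto1 (-0.044) were not called.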
